A study of Mus musculus with 23 samples.

Results

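The major urinary proteins (MUPs) form a family of mouse lipocalins encoded by a cluster of paralogous genes. The members described here are the 10 genes named Mup1, Mup2, Mup3, Mup7, Mup10, Mup11, Mup16, Mup17, Mup20 and Mup21, found by gene name, and all 10 are in both deposited tables. They are 10 of 26522 genes in either table and 10 of 39 genes named Mup. The data are bulk RNA-seq read counts per gene from 23 liver samples in 4 groups. These were 5 of control males (replicates 1, 2, 3, 4 and 6), 6 of LKO males, 6 of control females and 6 of LKO females. The labels number the samples but do not state separate animals. Each sample is called a liver here, or a male or female of its group. In the LKO mice hepatic Cpt1a was ablated, per the series title. Animals of every group, controls included, carried the B100 genotype, received the diet labelled WD over 16 weeks and were in the fed state at necropsy. What drives the ablation, the meaning of B100, the animals' age and the composition of the diet are not given in the sources used here.

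MUPs are small secreted proteins with a barrel-shaped fold that holds hydrophobic ligands. The mouse liver makes them in large amounts, and they pass through the kidney into the urine, where they carry volatile pheromones. In mouse liver, most Mup genes are more active in males, under the pulsatile male pattern of growth hormone secretion and its transcription factor STAT5B, and thyroid hormone, glucocorticoids and nutritional state also act on them. Mup20 encodes darcin, a male urinary pheromone that females learn and respond to.

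In the coordinates of the deposited tables, whose build the submitters' processing notes name as mm39, the 10 members lie on chromosome 4 between 60066469 and 62069100, a span of 2.0 Mb, all on the minus strand. Mup7 (ENSMUSG00000073842, 60066469 to 60070475) is the first and Mup21 (ENSMUSG00000066153, 62066169 to 62069100) the last. Mup20 (ENSMUSG00000078672, 61968471 to 61972395) and Mup3 (ENSMUSG00000066154, 62001713 to 62005579) lie next to each other near the Mup21 end. Mup2 is ENSMUSG00000078688, 60135932 to 60154289, and Mup17 is ENSMUSG00000096688, 61510166 to 61514108.

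How alike the paralogs are sets what a count per gene can mean, so their second coding exon, 134 bases in every member, is shown first. The sequences are those of GENCODE M21 transcripts, given 5′ to 3′ on the coding strand, which is the minus strand, with GRCm38 coordinates that differ from those of the tables. Capitals mark the bases that differ from Mup7, whose exon is all in lower case.
Mup7 (chr4:60069733-60069866): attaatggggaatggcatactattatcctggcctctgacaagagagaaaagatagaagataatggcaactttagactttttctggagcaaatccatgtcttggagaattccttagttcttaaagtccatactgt
Mup1 (chr4:60501282-60501415): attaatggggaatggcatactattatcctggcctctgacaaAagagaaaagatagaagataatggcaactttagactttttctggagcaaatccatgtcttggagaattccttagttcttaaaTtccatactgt
Mup10 (chr4:60581521-60581654): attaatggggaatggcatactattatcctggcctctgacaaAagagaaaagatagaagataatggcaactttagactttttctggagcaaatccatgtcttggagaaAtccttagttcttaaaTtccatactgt
Mup16 (chr4:61518853-61518986): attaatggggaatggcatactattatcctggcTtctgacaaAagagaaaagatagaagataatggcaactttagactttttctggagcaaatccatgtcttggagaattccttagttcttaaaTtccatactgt
Mup17 (chr4:61595193-61595326): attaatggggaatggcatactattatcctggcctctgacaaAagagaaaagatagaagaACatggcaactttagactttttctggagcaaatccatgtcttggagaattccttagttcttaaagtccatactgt
Mup20 (chr4:62053480-62053613): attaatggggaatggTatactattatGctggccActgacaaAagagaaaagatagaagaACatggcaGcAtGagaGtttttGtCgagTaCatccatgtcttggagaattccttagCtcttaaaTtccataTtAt
Mup3 (chr4:62086800-62086933): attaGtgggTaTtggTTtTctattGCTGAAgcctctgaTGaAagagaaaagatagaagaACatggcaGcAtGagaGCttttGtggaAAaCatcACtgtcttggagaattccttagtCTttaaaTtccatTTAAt
Mup21 (chr4:62150195-62150328): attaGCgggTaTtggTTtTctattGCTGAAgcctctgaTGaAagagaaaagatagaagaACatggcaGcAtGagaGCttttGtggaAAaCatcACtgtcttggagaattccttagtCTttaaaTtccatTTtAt
Mup2 and Mup11 have the same 134 bases as Mup1. Among the 7 members Mup1, Mup2, Mup7, Mup10, Mup11, Mup16 and Mup17, called the near-identical members here, any pair differed at 0 to 4 of these positions. Mup20 differed from Mup7 at 18 positions, and Mup3 and Mup21 at 35 each, while Mup3 and Mup21 differed from each other at 2.

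Over whole GENCODE M21 transcripts, the share of 100-base windows also present in another Mup gene was 55.7 percent for Mup1, 75.5 percent for Mup2, 76.1 percent for Mup7 and 82.4 percent for Mup16. It was 73.4 percent for Mup10, 70.6 percent for Mup11 and 59.4 percent for Mup17. A read from such a window fits more than 1 gene, and how reads with several matches were counted is not given in the sources used here, so the counts of the near-identical members are uncertain one by one. Mup3 shared 2.23 percent and Mup21 4.50 percent of their windows, each with the other. Mup20 shared 38.8 percent, all with the pseudogene Mup-ps19, and with no other member. Over 50-base windows the shares were 13.3 percent for Mup3, 19.3 percent for Mup21 and 50.1 percent for Mup20, the last with 24 other Mup genes and pseudogenes. The read length is not given in the sources used here. The sum over members is given beside the single genes.

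Upstream sequence was at hand for 7 of the 10 members (RefSeq, GRCm38.p6; Mup1, Mup16 and Mup20 were not matched). All 7 promoters held the letters TTNNGNAAT, a form of the motif bound by C/EBP factors, which are hepatocyte transcription factors, on either strand within 250 bases before the annotated start. The share over 32851 mouse promoters of the same length was 10.2 percent, and matches of this motif can overlap each other. The STAT5 motif TTCNNNGAA was in 0 of the 7, against 7.02 percent of promoters, and AGAACA, a short glucocorticoid receptor motif, in 2 of 7 (Mup3 and Mup21), against 16.1 percent. The TATA box variant TATATAA was in 5 of 7, against 3.04 percent, and TATAAA in 0 of 7, against 12.4 percent. These are promoters of paralogs, and several hold the same matched letters. They are therefore not independent, and their number cannot be weighed against the share over all promoters. A match says only that these letters are present. The stretches below, 60 bases each on the minus strand, show a C/EBP match at ATTCCACAA (capitals) that these near-identical and divergent members hold alike.
Mup2 (chr4:60139944-60140003): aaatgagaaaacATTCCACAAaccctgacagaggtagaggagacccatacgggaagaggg
Mup17 (chr4:61595915-61595974): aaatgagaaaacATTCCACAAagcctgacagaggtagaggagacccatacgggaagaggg
Mup3 (chr4:62087352-62087411): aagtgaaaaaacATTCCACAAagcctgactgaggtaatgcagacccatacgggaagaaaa
Mup21 (chr4:62150870-62150929): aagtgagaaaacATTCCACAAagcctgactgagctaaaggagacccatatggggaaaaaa

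Library totals ran from 14224665 counts in control male replicate 4 to 19626662 in an LKO female. Cpt1a, whose enzyme lets long-chain fatty acids enter mitochondria, was 362 ± 51.05 CPM in control males and 63.9 ± 20.3 CPM in LKO males (SD, n = 5 and 6), and 383 ± 57.8 and 75.0 ± 8.54 CPM in control and LKO females (SD, n = 6 each), with no overlap in either sex. Here CPM is a read count relative to the library total, scaled by TMM factors within a sex, unless stated otherwise. The labelled tissue was borne out by its markers: all 8 hepatocyte markers were detected, and their summed level ran from 63303 to 112826 CPM over the 23 livers. Nothing in the labels gives a batch. In bulk tissue, fewer cells of a type and less RNA per cell cannot be told apart.

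Compared per base of gene length, as the deposited FPKM allows, Mup3 and Mup20 led in control males, with medians of 4372 and 3419 FPKM. Mup7 followed at 797.9, Mup17 at 402.7 and Mup21 at 142.7 FPKM. Mup16 (37.7), Mup11 (27.4), Mup1 (3.65), Mup2 (3.49) and Mup10 (0.832) had the lowest medians. In this order, the ranges of every neighbouring pair overlapped over the 5 control males. Without control male replicate 4, described below, 5 neighbouring pairs were separate: Mup20 (1889 to 3517 FPKM) from Mup7 (717.7 to 1686), Mup7 from Mup17 (276.9 to 619.5), Mup17 from Mup21 (86.2 to 200.7), Mup11 (22.1 to 70.5) from Mup1 (1.63 to 4.60), and Mup2 (1.23 to 5.20) from Mup10 (0.377 to 1.05). In control females Mup3 stood alone at a median of 1900 FPKM (1190 to 2687), and the next, Mup20, had 77.4 FPKM (31.9 to 100.2). Mup17 (24.6), Mup16 (16.5) and Mup21 (11.3) came next with ranges that overlapped each other, and that of Mup17 overlapped Mup20, and Mup7 was at 2.97 FPKM. Mup3 made up most of the female sum, with 74.5 to 96.7 percent of member counts in control females against 31.7 to 58.5 percent in control males.

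**Figure D1:**
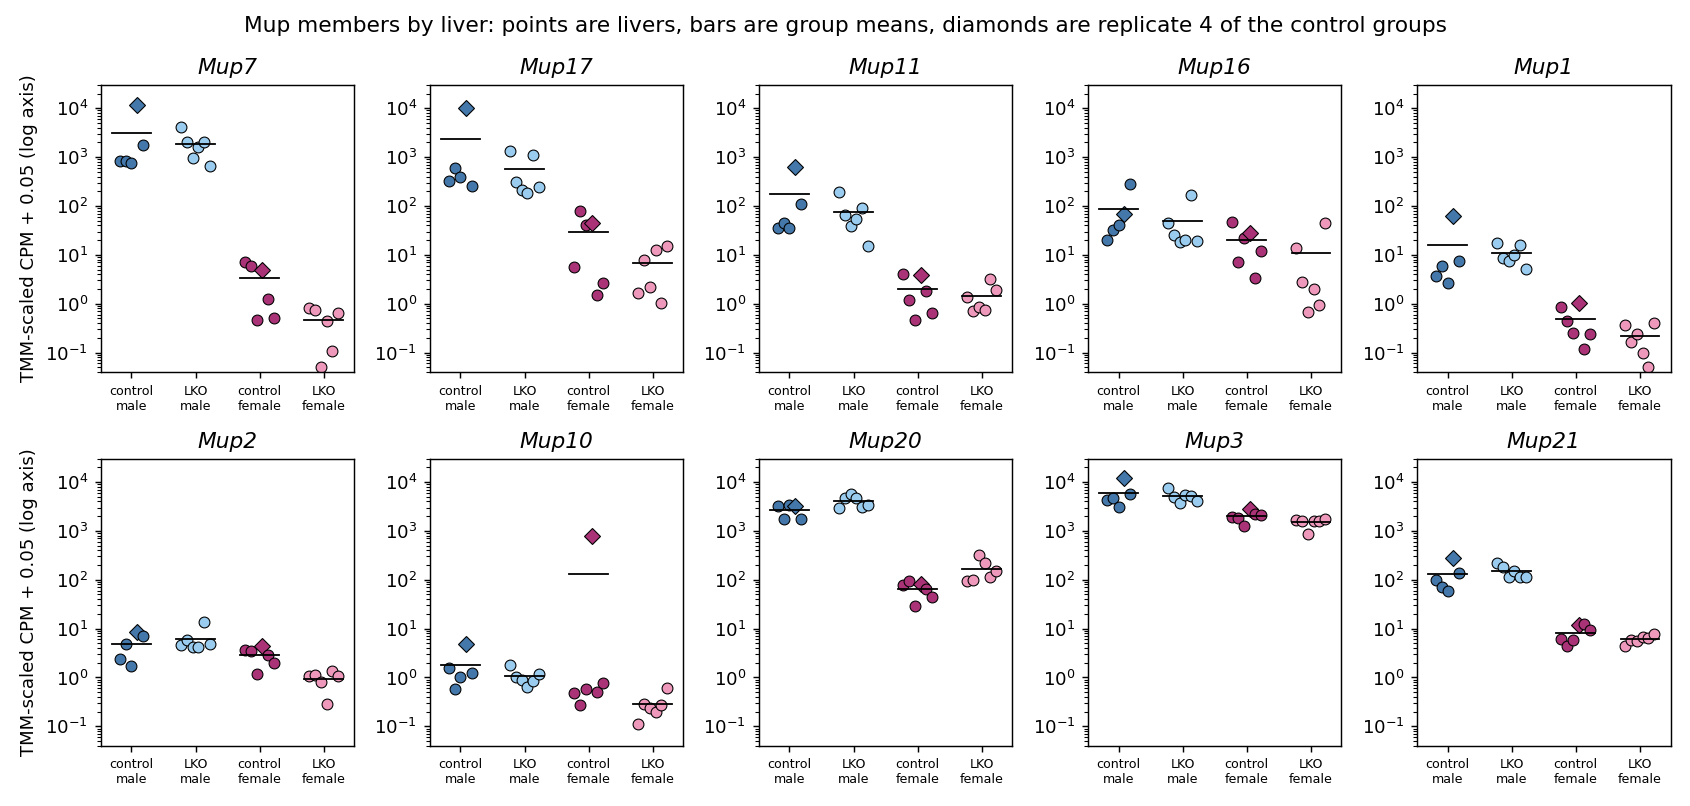
TMM-scaled CPM plus 0.05 of each member on a log axis, by group. Each point is a liver, the bar is the group mean, and diamonds are replicate 4 of the control males and of the control females. In males the diamond stands above all other control livers for Mup7, Mup17, Mup11, Mup1, Mup3, Mup21, Mup10 and Mup2, but not for Mup20 or Mup16; in females the diamond of Mup10 stands alone at 789 CPM.

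A single liver dominated the male data. Control male replicate 4 had 142408 counts of Mup7, while control replicates 1, 2, 3 and 6 had 13005, 14129, 12596 and 30097. Its Mup17 count was 124117, against 5198, 9845, 6343 and 4437 in the same order, and its Mup11 count 7836, against 569, 740, 594 and 1920. This liver was far above its group for the sum of the near-identical members, 276129 counts there and 19206 to 41502 in the other control males. That did not hold for each of them. Mup16 had 850 counts there and 4782 in control male replicate 6. Mup2 had 103 counts there and 120 in replicate 6, or 8.33 and 7.02 CPM. Mup3, with little shared sequence, was also highest in control male replicate 4, at 148150 counts against 69190, 80052, 51457 and 95441. Mup20 was not: its 39329 counts lay within the 52173, 30049, 55453 and 30327 of the other controls. The 10 members together took 3.28 percent of the counts of control male replicate 4 and 0.816 to 0.924 percent of the other control males.

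The same liver stood apart in genes outside the family. Of 14 tested genes on a list of male-biased liver genes, it was the highest of the 5 control males in 12, and of 8 tested female-biased genes it was the lowest in 7. On other lists used below it was highest in 8 of 14 regulators, 5 of 9 other lipocalins and 4 of 12 growth hormone genes. It was lowest there in 1, 3 and 2. The share over all genes was not counted. This liver also had counts in the fewest genes, 18232 against 19209 to 19584 in the other control males. Hsd3b5, a male-biased steroid dehydrogenase gene, was 355.9 CPM in control male replicate 4 and 15.6 to 96.3 CPM in the other control males. Elovl3, a fatty acid elongase gene, was 570.5 CPM against 105.8 to 143.9, and Serpina1e, a protease inhibitor gene, 5166 CPM against 117.6 to 687.5. Cyp4a12a, a male-biased cytochrome P450 gene, went the other way and was lowest there, at 177 CPM against 200.8 to 268.2. Serpina1e and Cyp4a12a have near-identical paralogs of their own, so their counts are uncertain as well. The hepatocyte marker sum of this liver was also the highest of the control males, 99481 CPM. The part of these differences in the male results was not tested. The members' log2 fold changes in males are given with and without this liver.

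**Figure D2:**
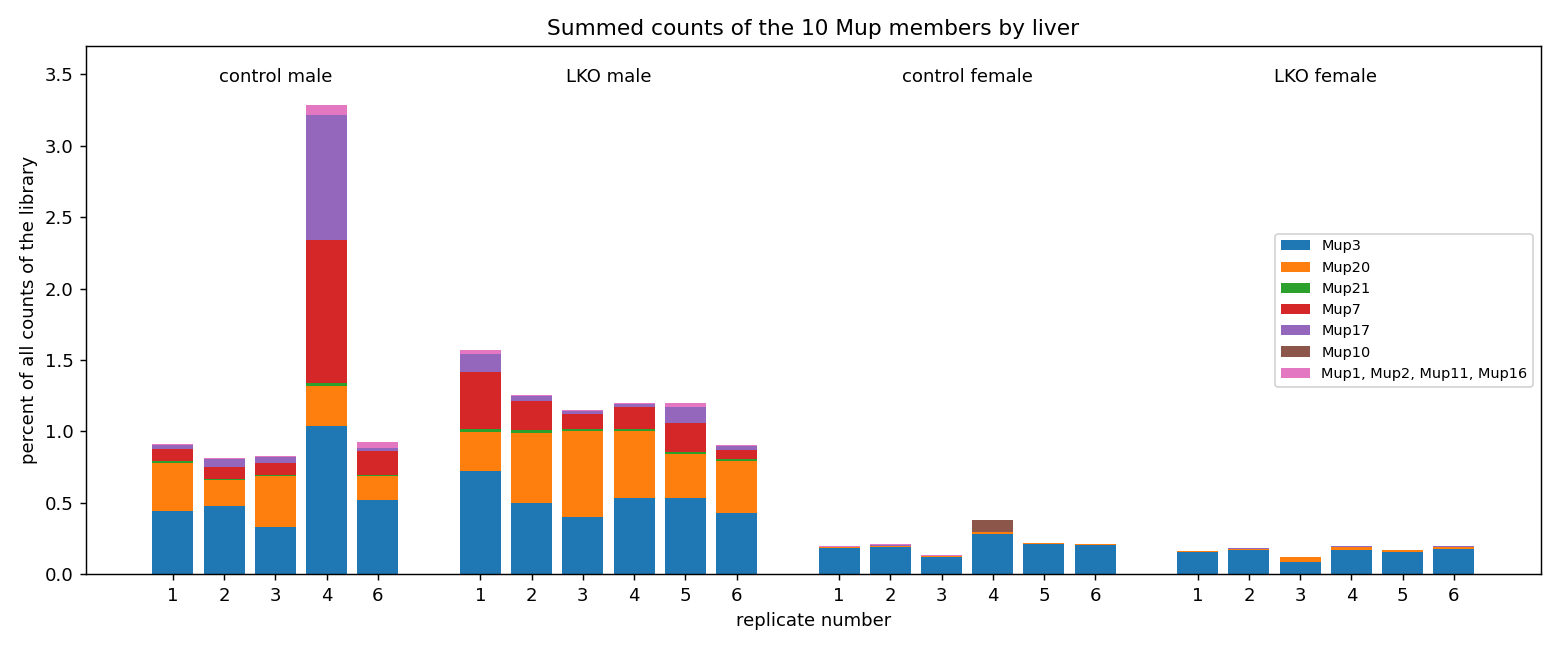
Percent of all counts of each library taken by the 10 members, stacked by gene, for each liver by group and replicate number. Control male replicate 4 reaches 3.28 percent, mostly through Mup3, Mup7 and Mup17, the other 10 male livers 0.816 to 1.57 percent, and female livers at most 0.381 percent.

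In males, 0 of the 10 members differed between LKO and control livers beyond the threshold used here, an edgeR quasi-likelihood p adjusted over all genes (Benjamini-Hochberg) under 0.05. The background was 1 call among 13805 genes tested, 0.00724 percent, and that gene was Cpt1a. No member had CPM ranges that were separate between the groups, against 1.77 percent of genes. At an unadjusted p under 0.05, 1 member and 1719 genes passed, and DESeq2 called 0 of the 6 members to which it gave an adjusted p. The signs of Mup1, Mup3, Mup7, Mup11 and Mup17 turned on control male replicate 4, and those of the other members did not. The fitted log2 fold changes (LKO over control) were below 0 for 7 of 10 members with that liver and for 2 of 10 without it. Their median was -0.65 with it and 0.59 without it, against 0.010 over all genes tested.

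Mup20 was the member with the lowest p in males. It had 52173, 30049, 55453, 39329 and 30327 counts in control replicates 1, 2, 3, 4 and 6, and 42794 to 95882 in LKO males with a median of 67063.5. In CPM, all 6 LKO males were above the control mean and 4 of them above every control. The means were 2672 ± 817 CPM in controls (SD, n = 5) and 4083 ± 1094 in LKO males (SD, n = 6), and the edgeR log2 fold change was 0.61 with an SE of 0.23 (unadjusted p 0.0181, adjusted p 0.313). Over the alternatives tried, its adjusted p ran from 0.139 to 0.589, and the log2 fold change was 0.68 without control male replicate 4.

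Mup7 and Mup17, the most abundant of the near-identical members, did not pass either. Mup7 ran from 11499 to 60544 counts in LKO males, with a median of 28798.5. That is 5 of 6 livers above the control median, yet 5 of 6 below the control mean, which replicate 4 sets. Its log2 fold change was -0.73 (SE 0.71, edgeR adjusted p 0.729) and 0.86 (SE 0.43, adjusted p 0.471) without that liver. Mup17 ran from 2843 to 20078 counts in LKO males. Its log2 fold change was -2.03 (SE 0.97, adjusted p 0.414) and 0.55 (SE 0.56, adjusted p 0.752) without it. For both genes the LKO and control ranges overlapped.

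The divergent pair of Mup3 and Mup21 had overlapping male groups as well. Mup3 ran from 63274 to 110725 counts in LKO males, and its log2 fold change was -0.21 (SE 0.30, edgeR adjusted p 0.835), or 0.21 without control male replicate 4. Mup21 had 1581, 1175, 992, 3448 and 2348 counts in controls and 1818 to 3296 in LKO males. All 6 LKO males were above the control median in CPM, and the log2 fold change was 0.22 (SE 0.35, adjusted p 0.855), or 0.72 without that liver (adjusted p 0.349).

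The remaining members were low in males. Log2 fold changes were -1.18 for Mup11, -0.86 for Mup16, -0.78 for Mup10, -0.57 for Mup1 and 0.37 for Mup2, with edgeR adjusted p from 0.537 to 0.799. Without control male replicate 4 those of Mup11 and Mup1 became 0.41 and 1.12, that of Mup10 -0.048, that of Mup16 -0.94 and that of Mup2 0.64. Mup16 rested on another liver: control male replicate 6 had 4782 counts against 313 to 850 in the other controls, and without it the value was 0.27. Mup2 rested on LKO male replicate 5, with 222 counts against 64 to 96 in the other LKO males, and without it the value was -0.039.

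The summed members had 142150, 136726, 128188, 467056 and 169618 counts in control males and 150793 to 241242 in LKO males, with a median of 190273. Of the LKO males, 5 of 6 were above the control median. The log2 ratio of mean CPM was -0.27, that of medians 0.43, and that of means without control male replicate 4 was 0.47. No test was made of the sum.

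**Figure D3:**
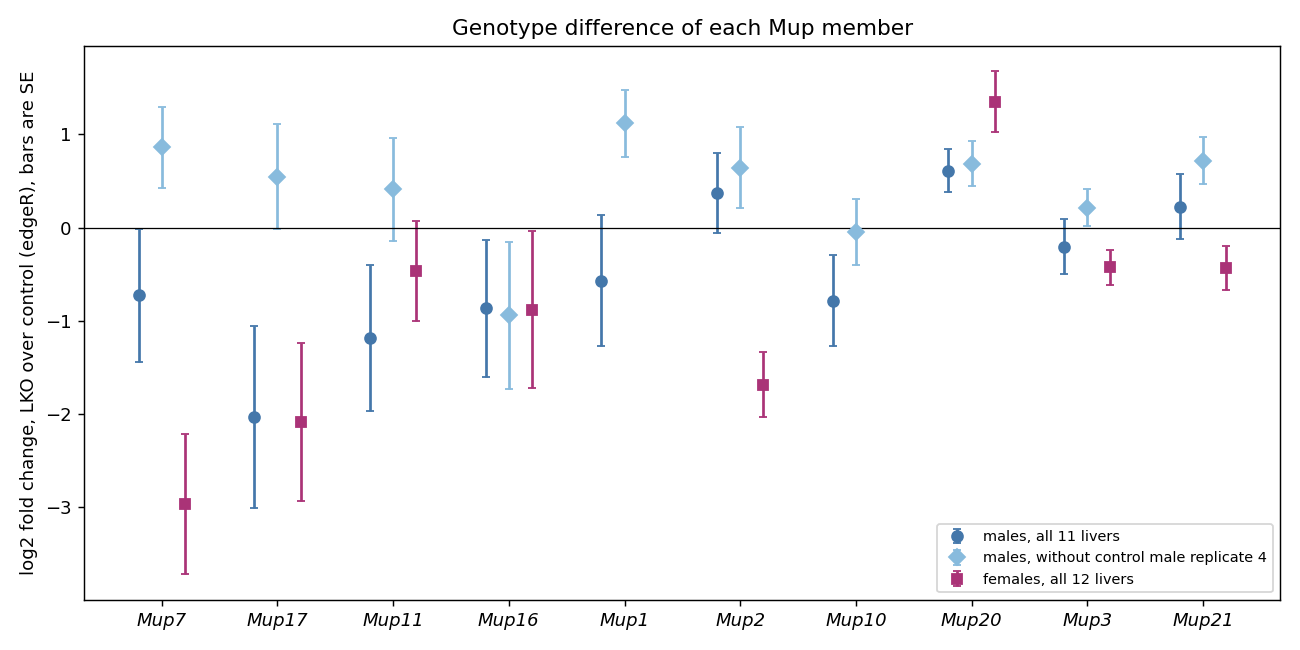
Log2 fold change (LKO over control, edgeR) of each member with its standard error, for all 11 males, for males without control male replicate 4, and for all 12 females; Mup1 and Mup10 have no female value. Mup20 is above 0 in all 3 series, and Mup7, Mup17, Mup11, Mup1 and Mup3 change sign in males without that liver.

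In females, Mup2 was lower in LKO livers and was the only member called. The background was 194 of 13684 genes, 1.42 percent, of which 67 were lower, 0.49 percent. In 0 members were the CPM ranges of the groups separate, against 1.59 percent of genes. Of the 10 members 8 passed the filter on low counts, and Mup1 and Mup10 did not. Of the 8, 7 had a log2 fold change below 0, and Mup20 had one above 0; 127 of all genes, 0.928 percent, were called higher. Mup20 and Mup7 had the next lowest adjusted p among the members and missed the threshold.

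Mup2 had 17 to 68 counts in control females (median 51) and 5 to 23 in LKO females (median 17). In CPM, 5 of 6 LKO females were below every control. It fell from 2.87 ± 1.15 to 0.896 ± 0.366 CPM (SD, n = 6 each). The edgeR log2 fold change was -1.69 with an SE of 0.35, and the adjusted p was 0.0297. These counts are small and most of the gene's windows are shared with other Mup genes. The call held in 8 of the 12 fits that each left out 1 liver, with adjusted p up to 0.0721, and it was lost without control female replicate 1 or 5 and without LKO female replicate 2 or 3. In the fit of all 23 livers its adjusted p was 0.0782. In the authors' deposited table the adjusted p of Mup2 in females is 0.000325.

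Mup20 ran from 437 to 1631 counts in control females (median 1139.5) and from 1454 to 5243 in LKO females (median 2508.5). In CPM, 5 of 6 LKO females were above every control. The means were 65.7 ± 24.6 and 168 ± 90.6 CPM (SD, n = 6 each). The edgeR log2 fold change was 1.35 with an SE of 0.33, and the adjusted p was 0.0546. DESeq2 called it (adjusted p 0.0192), as did the fit of all 23 livers (0.0383), the fit without a filter (0.0328) and the fit without LKO female replicate 1 (0.0400). It was not called in the other 11 fits that each left out 1 liver, and over all alternatives its adjusted p ran from 0.0192 to 0.125. In the authors' deposited table its adjusted p is 0.0212 in females and 0.127 in males. Mup20 was thus the sole member whose log2 fold change was above 0 in females, and it was also above 0 in males under every alternative run.

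Mup7 was near the floor of detection in females. It had 6 to 119 counts in control females (median 48) and 0 to 12 in LKO females (median 10), and 3 of 6 LKO females were below every control in CPM. The log2 fold change was -2.97 (SE 0.75, edgeR adjusted p 0.0657). DESeq2 gave an adjusted p of 0.0332, and the authors' deposited table gives 0.0356.

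The other members did not pass in females. Mup17 ran from 22 to 1364 counts in controls and from 17 to 300 in LKO females (log2 fold change -2.09, SE 0.85, edgeR adjusted p 0.248), and the groups overlapped. Mup3, the most abundant member, ran from 18739 to 45376 and from 13600 to 33851 counts. All 6 LKO females were below the control mean of Mup3 in CPM, and its log2 fold change was -0.43 (SE 0.19, adjusted p 0.289). Its lowest liver was LKO female replicate 3, at 845 CPM. Mup21 (-0.44), Mup11 (-0.47) and Mup16 (-0.88) had adjusted p from 0.397 to 0.738.

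Mup10 was high in a single female liver. Control female replicate 4 had 12593 counts, and every other female liver had at most 11. Mup1 had at most 16 counts in any female liver. The summed members ran from 20218 to 60867 counts in control females (median 34139) and from 19009 to 38258 in LKO females (median 30032), and the highest sum was again that of control female replicate 4. The log2 ratio of mean CPM was -0.43 with that liver and -0.22 without it.

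Outside the 10 members, the tables list 29 further Mup genes and pseudogenes. Of these, 17 were tested in males with 0 called, and 10 in females with 1 called, the pseudogene Mup-ps19, which ends 90.3 kb before Mup20 in the tables' coordinates. Mup-ps19 had 3 to 29 counts in control females and 44 to 298 in LKO females, with no overlap in counts or CPM. It rose with an edgeR log2 fold change of 3.11 (adjusted p 0.00941, SE 0.52). In males it had 3820, 2204, 5274, 3822 and 1384 counts in controls and 5209 to 13599 in LKO livers. Its edgeR adjusted p in males was 0.266 for a log2 fold change of 1.20. The male counts overlapped but the CPM did not, at 81.0 to 318.2 in controls and 325.4 to 809.1 in LKO males. Of all genes tested, 1.77 percent had no overlap in CPM in males and 1.59 percent in females. Reads of the Mup-ps19 sequence can be Mup20 reads, since all shared 100-base windows of Mup20 are shared with Mup-ps19. The ratio of Mup20 to Mup-ps19 CPM ran from 29.1 to 271.8 in control females and from 14.3 to 44.6 in LKO females. In males it ran from 10.3 to 21.9 in controls and from 5.86 to 9.96 in LKO livers, without overlap.

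**Figure D4:**
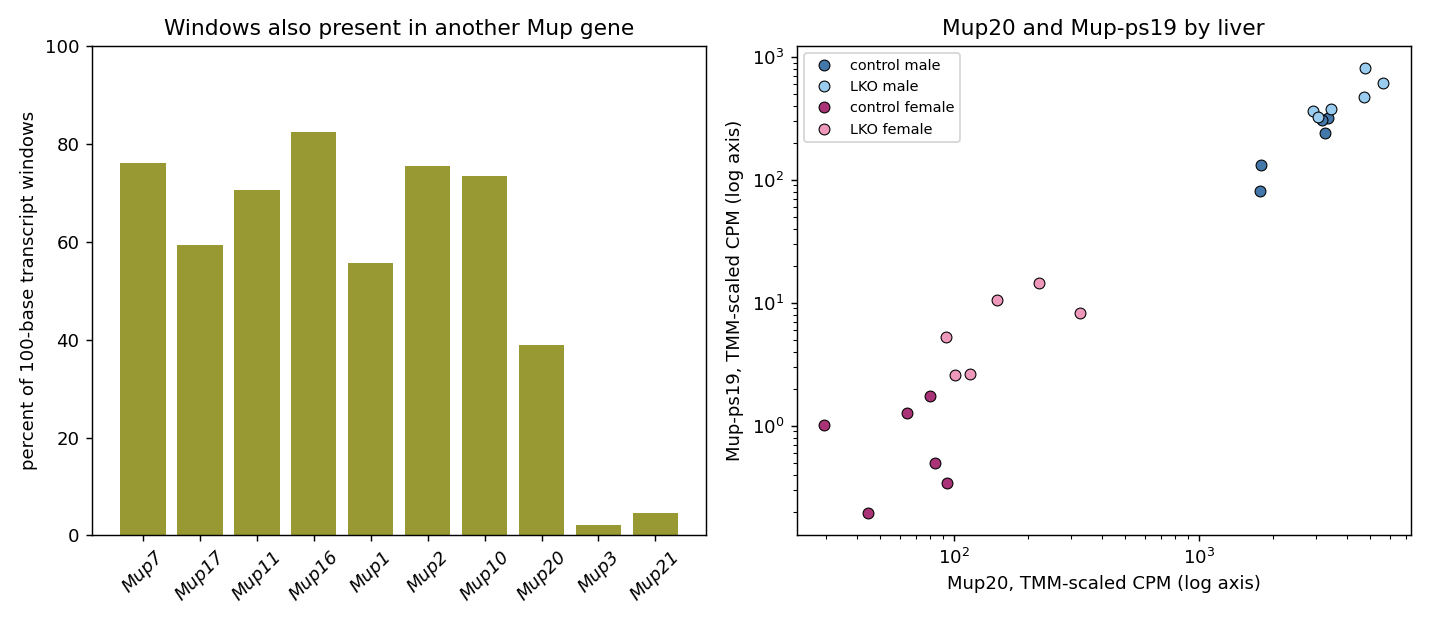
Left, percent of the 100-base transcript windows of each member that another Mup gene also holds (GENCODE M21); right, Mup20 against Mup-ps19 in TMM-scaled CPM on log axes, each point a liver. Mup3 and Mup21 share under 5 percent of their windows, and in each sex every LKO liver is above every control liver for Mup-ps19.

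The other abundant Mup genes showed the same liver in males. Control male replicate 4 had 121098 counts of Mup12, 48181 of Mup15, 14850 of Mup19 and 12319 of Mup13, while the highest other control male had 24862, 2410, 263 and 699. It was the highest control male in 24 of the 39 Mup genes. Mup22 ran over a narrower range in males, 807.3 to 1810 CPM over all 11 livers, with the highest value in control male replicate 6.

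Whether the genotype difference differed between the sexes was tested as an interaction over all 23 livers. It called 0 of 14503 genes, 0 percent, and 0 of 10 members, with 1874 genes and 2 members at an unadjusted p under 0.05. DESeq2 called 96 genes and 0 members. Mup2 had an interaction log2 value (females minus males) of -2.05 with an SE of 0.60 (edgeR adjusted p 0.199), and Mup20 had 0.74 (SE 0.43, adjusted p 0.477). The value of Mup10, -8.31 (SE 2.96, adjusted p 0.273), came to -0.15 without control female replicate 4. Without control male replicate 4, 0 members and 17 of 14712 genes were called. The lowest edgeR adjusted p of a member was then 0.0869 for Mup7 (log2 value -3.85). In that fit 7 members, Mup10 among them, were at an unadjusted p under 0.05. The count over all genes at that threshold is not given here, so the 7 have no background. The call of Mup2 in females alone therefore does not show that the sexes differ.

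Control females had less of most members than control males. In control livers, 7 of the 10 members were called lower in females than in males, against a background of 1260 of 13699 genes called lower, 9.2 percent. The same 7 members had no overlap between the sexes in CPM, against 5.2 percent of genes without overlap and lower in females. Mup1, among the 7, did not pass the filter on low counts among females alone. It passed the filter here with the males, where it was higher, so its direction is not independent of the filter. Each sex has a deposited table of its own, so an effect of sex and one of the table cannot be told apart, and this comparison shares its control livers with both genotype comparisons.

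Scaled over the 11 control livers together, Mup20 was 2589 ± 785 CPM in males and 65.3 ± 24.5 CPM in females (SD, n = 5 and 6), 39.6 times higher in males (log2 fold change, female over male, -5.31, SE 0.32). Mup7 had the largest difference, at -9.83 (SE 1.12, edgeR adjusted p 0.000113), or -8.23 without control male replicate 4, and the ratio of medians was 269-fold higher in males. Mup11 was at -6.42, Mup17 at -6.29 and Mup1 at -5.09. Without control male replicate 4 these were -4.82, -3.71 and -3.39, all 3 still called, and Mup20 was at -5.23. Mup21 was at -3.93 (SE 0.41). Mup3 had the smallest difference of the 7, at -1.52 (SE 0.30, adjusted p 0.00489): its lowest control male had 2993 CPM and its highest control female 2841.

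The other 3 members were not called between the sexes. Mup2 was similar in level, 4.70 ± 2.80 CPM in males and 2.85 ± 1.14 in females, with overlap (log2 fold change -0.70, SE 0.41, edgeR adjusted p 0.25). Mup16 was at -2.13 (SE 0.71, adjusted p 0.0551). DESeq2 called it (adjusted p 0.0385), and without control male replicate 6 it was at -0.99 (edgeR adjusted p 0.273). Mup10 was at 6.32 through control female replicate 4 alone, and without that liver it was at -1.84 (adjusted p 0.0429). Of the other Mup genes, 9 of 13 tested were called, all lower in females, where 9.2 percent of genes tested were called lower. Mup9, Mup14 and Mup18 among them did not pass the filter on low counts among females alone. They passed it here with the males, where their counts were higher, so their direction is not independent of the filter.

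Genes of growth hormone signalling, not all of them regulators of Mup genes, and regulators of Mup or sex-biased liver genes were examined from lists. On a list of growth hormone and STAT5 signalling, 12 of 12 genes were tested and 0 were called in males, in females or between the sexes. The lowest p belonged to Bcl6, a repressor that competes with STAT5, in males (edgeR adjusted p 0.552 for a log2 fold change of 0.68) and to Stat5a in females (0.53, SE 0.17, adjusted p 0.132). On a list of regulators of Mup or sex-biased liver genes, 0 of 14 were called in males and 0 of 15 in females. Zhx2, a transcription factor that acts on Mup genes, was at -0.021 in males and 0.084 in females. Cebpa, which encodes a C/EBP factor, was at -0.28 in males (SE 0.086, adjusted p 0.274) and -0.037 in females, and Thra, a thyroid hormone receptor, was at -0.60 in females (SE 0.18, adjusted p 0.113).

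Between control sexes, 6 of the 15 regulators were called, all higher in females, where 8.8 percent of genes tested were called higher. Cux2, a female-specific repressor of male-biased liver genes, was 7.47 higher on the log2 scale (SE 0.54, edgeR adjusted p 2.2e-06), and Esr1, the estrogen receptor alpha, 1.82 (SE 0.23, adjusted p 0.000267). Hnf4a (0.43), Nr3c1 (0.41) and Nfib (0.31) were also among them.

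Other sex-biased genes gave the members a comparison. Of 14 male-biased genes outside the family tested between the control sexes, 14 were called lower in females, and of 16 female-biased genes 16 were called higher. For genotype, 0 of 14 male-biased and 0 of 8 female-biased genes were called in males. In females, 2 of 13 male-biased genes were called. Hsd3b5 fell by 4.28 on the log2 scale (SE 0.72, edgeR adjusted p 0.00941), and Gstp1, a glutathione transferase gene, rose by 0.56 (SE 0.13, adjusted p 0.0496). Of 20 female-biased genes 1 was called, Ntrk2, a neurotrophin receptor gene, which fell by 0.99 (SE 0.20, edgeR adjusted p 0.0251). Called or not, 15 of the 20 female-biased genes had a log2 fold change below 0 in females (median -0.61). So did 9 of the 13 male-biased genes (median -0.16), where the median over all genes tested was 0.0051. Hsd3b5 ran from 0.802 to 7.77 CPM in control females and from 0 to 0.235 CPM in LKO females, without overlap, against 1.59 percent of genes. Its counts were 13 to 124 in control and 0 to 4 in LKO females, so the LKO values were at the floor of detection. Of 9 tested lipocalins outside the family 0 were called for genotype, and the lowest p was that of Lcn2, an acute-phase lipocalin, in females (2.55, SE 0.73, adjusted p 0.103). Its medians were 34.4 CPM in control and 68.8 CPM in LKO females, and a single LKO female was at 961 CPM.

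Markers of the cell types a liver can hold were compared beside these results. In either sex, 0 of 8 hepatocyte markers were called, and the summed hepatocyte level ran from 66755 to 99481 CPM in control and 63303 to 92128 in LKO males, and from 89796 to 112826 in control and 66988 to 107267 in LKO females. Among markers of macrophages, endothelial cells, stellate cells, cholangiocytes, lymphocytes and neutrophils, the only call was Spp1 of the cholangiocyte list, higher in LKO females. The summed cholangiocyte level, which includes Spp1, was 39.9 to 49.8 CPM in control and 51.3 to 86.5 CPM in LKO females, without overlap. The sums of the other cell types overlapped in females, and 1.59 percent of single genes tested there had no overlap. The part of the cholangiocyte sum in the female results was not tested.

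The genes most like the summed members were found by Pearson r of log2(CPM + 1) after subtracting group means, over 11 males and over 12 females, ranked by the lower of both among 10316 genes outside the family. All points are livers that share their libraries with the members, and a single liver weighs heavily in males. Slco1a1, a male-biased organic anion transporter gene, had r of 0.89 in males (0.79 without control male replicate 4) and 0.70 in females. Gm10033 had 0.73 in both sexes, and 0.75 in males without that liver. Eea1, an early endosome gene, had 0.79 and 0.74, and Rnf8, a ubiquitin ligase gene, 0.71 and 0.85. For these last genes, r in males without control male replicate 4 was 0.11 and 0.048.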

How the data were processed

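Raw counts per gene were deposited by the authors in 1 table per sex, with FPKM, a normalized count signal, log2 fold changes and p-values beside them, per the file headers. Alignment used HISAT2 2.0.5 on mm39, per the submitters' processing notes, and the counter and the handling of multiply matching reads and of strand are not given in the sources used here. Members were tested on the counts with edgeR 4.0.16 in R 4.3.3 (filterByExpr, TMM, quasi-likelihood test, Benjamini-Hochberg over all genes, adjusted p under 0.05), each sex alone, the interaction and the sex comparison over genes in both tables. DESeq2 1.42.0 was an alternative. FPKM, per the deposited values, was used only to compare levels between genes, and of the deposited log2 fold changes and p-values only those named as the authors' are printed. The deposited signal was not used in a test. No per-sample column was unmapped. The members and gene lists were chosen with earlier results of these data known. Named genes were all members and some, not all, of the 14 other Mup genes averaging 50 counts or more in a group. Up to 6 called genes of each list, or else that of lowest p, and the 4 genes most like the sum were named too. Zhx2, Cebpa, Elovl3, Serpina1e and Cyp4a12a were also named after their values were seen. The edgeR script was tested on simulated counts. The labels number the livers but do not state separate animals, so p-values measure only the spread between these samples. Of the 6 regulators called between the control sexes, 1 is not reported here by name.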

Additional observations from a re-analysis of the deposited data

Results flagged for a closer look

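A liver was set aside here when its gap to the nearest other liver of its group was above Dixon's critical value for the group's range. This held in 16 of 44 groups tested, where chance gives about 1 in 20 if values are normally distributed, and the groups share livers and reads. CPM values need not be so distributed, so 16 of 44 cannot be weighed against that rate. Control male replicate 4 was the highest of its group 7 times: for Mup1 (61.2 CPM), Mup3 (11988 CPM), Mup7 (11523 CPM), Mup10 (4.77 CPM), Mup11 (634 CPM), Mup17 (10043 CPM) and the summed members (37793 CPM). Control female replicate 4 was highest for Mup10 (789 CPM) and for the sum (3812 CPM). LKO female replicate 3 was lowest for Mup3 (845 CPM) and for the sum (1181 CPM), while its Mup20 was the highest of the LKO females. Mup16 stood out in control male replicate 6 (279.7 CPM), LKO male replicate 5 (164 CPM) and LKO female replicate 6 (44.1 CPM). Mup2 was highest in LKO male replicate 5 (13.9 CPM), and Mup10 in LKO female replicate 6 (0.557 CPM). The cause of these values was not tested.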

How the results depend on the processing

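Calls of members in males and in the interaction stayed at 0 under every alternative run. In females 1 member was called, Mup2, against 4 with no filter (Mup2, Mup7, Mup10, Mup20) and 0 of 5 tested with at least 10 counts in every sample. DESeq2 called 3 (Mup2, Mup7, Mup20), and 0 to 2 were called with 1 liver left out. The fit of all 23 samples called 2, Mup10 (edgeR adjusted p 0.0245) and Mup20 (0.0383), but not Mup2 (0.0782). Mup10 was high in control female replicate 4 alone. Between the control sexes 7 members were called, or 4 of 6 tested with at least 10 counts in every sample, and 7 to 8 with 1 liver left out. With 1 liver left out, male log2 fold changes ran from -0.84 to 1.12 for Mup1, -0.039 to 0.64 for Mup2, -0.36 to 0.21 for Mup3, -1.11 to 0.86 for Mup7, -1.70 to 0.41 for Mup11, -1.80 to 0.27 for Mup16 and -2.51 to 0.55 for Mup17. Interaction values ran from -0.89 to 1.24 for Mup11, -1.49 to 0.93 for Mup16 and -2.65 to 0.55 for Mup17, and the sex value of Mup10 from -1.84 to 7.02. The male log2 ratio of sums ran from -0.43 to 0.47. With at least 10 counts in every sample, the interaction value of Mup16 was 0.0085. Apart from the livers left out, the cause of these changes was not tested.

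Over all genes, DESeq2 called 112 in males (edgeR 1), 559 in females (194) and 96 in the interaction (0), and the fit of all 23 livers called 5 and 94 in males and females. Male calls over all genes were 2 with no filter or with library size alone and 3 with at least 10 counts in every sample. Leaving out 1 female liver gave 87 to 233 calls in females, with the 6 lowest counts, up to 116, when the liver was replicate 1, 5 or 6 of the controls or 2, 3 or 4 of the LKO group, and leaving out control male replicate 4 gave 17 in the interaction. Replicate numbers were not taken to pair the livers, since not every pair's deviations correlated above 0.1: same-numbered deviations correlated at -0.39 to 0.42 in males and -0.0068 to 0.20 in females (5 of 6 pairs above 0.1), and 1 of 5 and 4 of 6 controls correlated best with their own number. With the replicate block, females had 2 members called (Mup2, Mup7, the latter at an adjusted p of 0.0168, while Mup20 was at 0.108) and 334 genes in all, males 0 members and 2 genes, and the male value of Mup1 was 0.21. Members under about 20 counts per liver in females (Mup1, Mup7, Mup10, Mup2 in LKO livers) are limited by depth.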
